A study of Rattus norvegicus with 9 samples.

Results

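Lysosomes are the acid compartments in which cells take apart proteins, glycans, lipids and nucleic acids. The hydrolases are made in the secretory pathway, tagged with mannose phosphate, carried by receptors to the lysosome and kept at low pH by a proton pump, and the limiting membrane is lined with heavily glycosylated proteins. In bone the same enzymes have a second use: osteoclasts, the cells that resorb bone, fuse lysosome-related vesicles with the membrane facing the matrix and release proteases and acid phosphatase onto it. A set of 51 genes for lysosomal hydrolases, their activators, membrane proteins, sorting receptors and the transcription factor Tfeb was followed here in rat bone of 2 sites, the calvaria of the skull and the ulna of the forelimb. Where several probe sets named a gene and no other, the one with the brightest mean log2 signal over the 9 arrays stood for it. This gave 48 measured genes of the 51, within 14217 genes measured in all. Sgsh, Galns and Npc1 had no probe set naming them alone and were not analysed here.

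The rats were male, of strain CD and about 110 g in weight, and their bone was normal and untreated. Total RNA went onto 4 skull arrays (calvaria 1 to 4) and 5 limb arrays (ulna 1 to 5); no age, genotype or treatment separates the groups. According to the methods of the study, attendant soft tissue and the sutures or epiphyses were removed and each extract pooled several rats, so n counts pools and p-values measure the spread between pools. Whole bone holds osteoclasts, osteoblasts, osteocytes, vessels and whatever marrow was left in place. The question was how basal expression in a skull bone compares with that in a weight-bearing limb bone.

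A label field of ulna 1 to 4 names the calvaria, against their titles and source names. Hoxa9, a positional gene of trunk and limb, read 60.4 to 79.0 on the 5 limb arrays and 1.82 to 4.80 on the 4 skull arrays, and all 8 positional genes examined separated the sites without overlap in the direction of the titles. Array medians were 33.01 to 36.59 before scaling. No member had a signal at or below the highest absent-control signal (8.34) on any array. For Gapdh, the log2 ratio of 3' over 5' control signal, a measure of RNA degradation, was 0.594 on calvaria 3, 0.544 on calvaria 4 and 0.209 to 0.397 on the other 7 arrays. The same ratio for beta-actin was 0.75, 0.84, 1.04 and 1.02 on calvaria 1 to 4, and 0.57 to 0.86 on the limb arrays.

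Most lysosomal genes had higher signals in the skull than in the limb, by less than 2-fold. Of the 48 members 44 had a positive log2 difference (skull minus limb), and the median difference was 0.51 on the log2 scale, with a range of -1.14 to 1.76, beside a median of -0.02 over all 14217 genes. By limma, 36 members (75.0%) were higher in the skull at an adjusted p below 0.05, against 14.2% of all genes, and 1 member (2.08%) was lower, against 18.1% of all genes. With the further condition of a 2-fold difference, 6 members (12.5%) were called higher, against 3.59% of all genes: the acid phosphatase Acp5, the sulfatase Arsb, the proteases Ctsk and Tpp1, the glycosidase Naglu and the thioesterase Ppt1. A single member, the aspartic protease Ctse, was called lower (2.08%, against 4.47% of all genes). The other 30 members past the adjusted p were higher in the skull by less than 2-fold, and 11 did not pass it. In these whole-bone extracts, fewer cells of a type and less RNA per cell cannot be told apart.

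The same split was seen on single arrays. For 35 members (72.9%) every skull array lay above every limb array, which held for 12.4% of all genes. For 1 member every skull array lay below every limb array, which held for 16.4% of all genes, and for 12 members the arrays overlapped. The mean log2 signal of the 48 members was 9.17 to 9.40 on the skull arrays and 8.70 to 8.77 on the limb arrays.

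**Figure D1:**
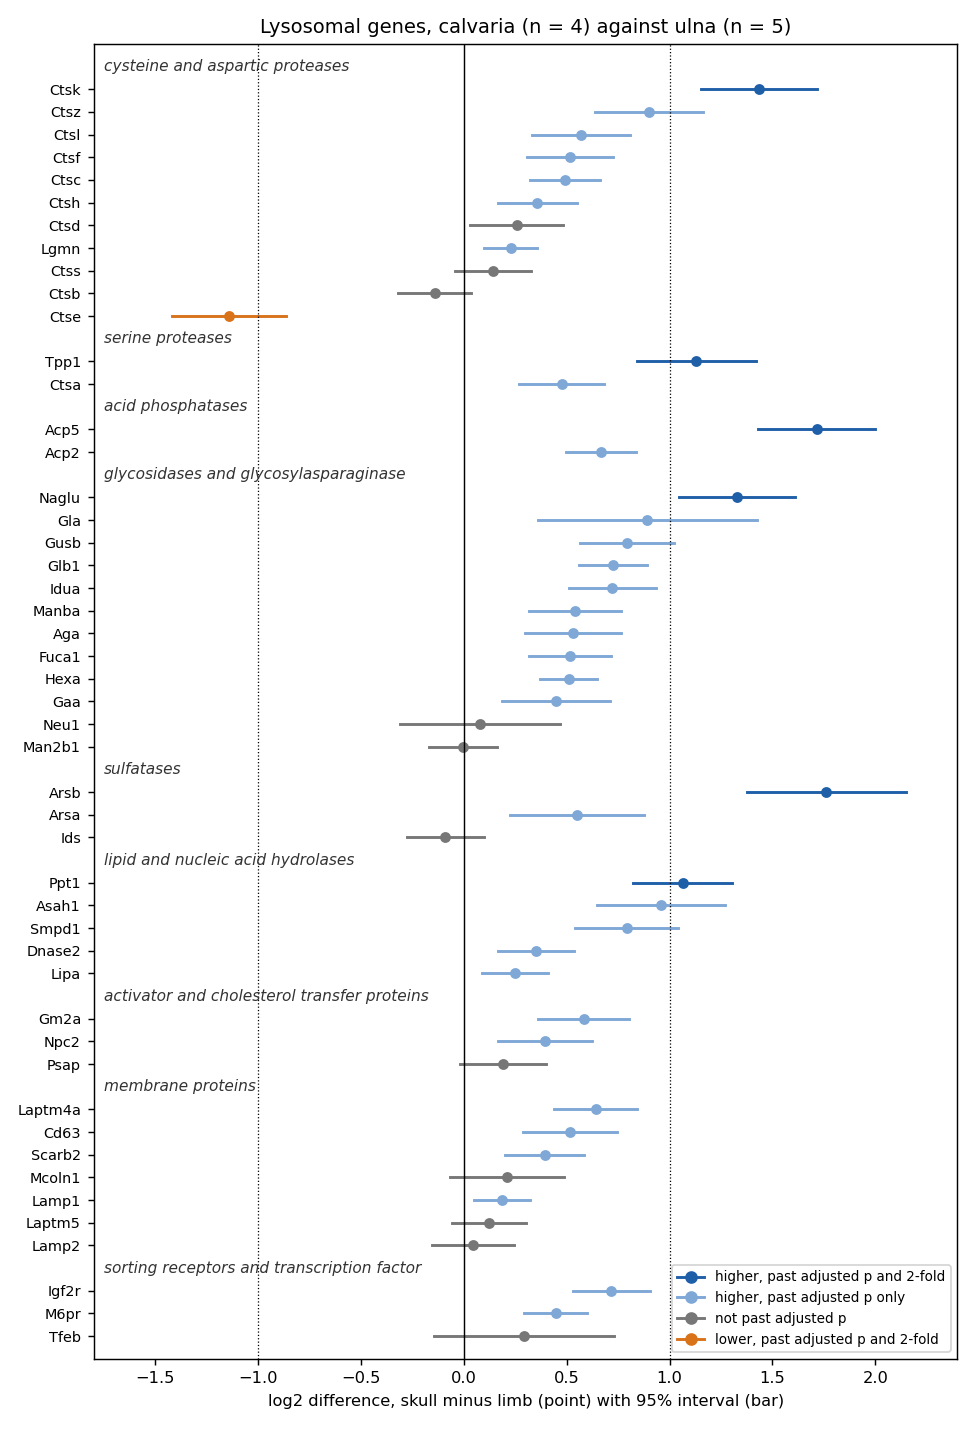
Log2 difference in signal, skull minus limb, of the 48 measured lysosomal genes grouped by role. Points are limma estimates, bars their 95% intervals (4 skull and 5 limb arrays), and dotted lines mark 2-fold; 44 points lie to the right of 0, and Ctse stands apart on the left at -1.14.

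Among the proteases, Ctsk and Ctse moved in opposite directions. Ctsk encodes cathepsin K, the collagen-degrading cysteine protease of osteoclasts, and Ctse encodes cathepsin E, an aspartic protease of endosomes, known from gastric epithelium, immune cells and red cells. Ctsk gave signals of 3761, 4587, 5525 and 4185 on calvaria 1 to 4, and of 1837, 1481, 1513, 1837 and 1636 on ulna 1 to 5. The lowest skull array thus stood well above the highest limb array, with an S:L ratio (mean skull over mean limb signal) of 2.72 and a log2 difference of 1.43 (SE 0.13, adjusted p = 5.83e-05). Ctse gave 471, 392, 293 and 353 in the skull, and 834, 828, 764, 797 and 883 in the limb. Every limb array lay above every skull array, the S:L ratio was 0.459 and the log2 difference was -1.14 (SE 0.12, adjusted p = 0.000156). Within the skull, calvaria 3 was highest and calvaria 1 lowest for Ctsk, and the other way round for Ctse.

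Ctsz and Ctsc had the next smallest adjusted p among the cysteine proteases. Ctsz encodes cathepsin Z, a carboxypeptidase, and read 1421, 1799, 2007 and 1350 in the skull and 924, 886, 828, 864 and 848 in the limb. The sites did not overlap and the log2 difference was 0.90 (SE 0.12, adjusted p = 0.000427), just under 2-fold. Ctsc encodes cathepsin C, a dipeptidyl peptidase that activates granule serine proteases, and read 349, 372, 345 and 297 against 264, 236, 245, 220 and 245. Again no limb array reached a skull array, and the log2 difference was 0.49 (SE 0.08, adjusted p = 0.00108). Ctsl (0.57), Ctsf (0.52), Ctsh (0.36) and the asparaginyl endopeptidase Lgmn (0.23) were also higher in the skull at adjusted p from 0.00247 to 0.0135, none with overlap. Lgmn did not pass when its probe sets were averaged (0.18, adjusted p = 0.433) or without the intensity trend (adjusted p = 0.051). Ctsb, Ctsd and Ctss, which encode cathepsins B, D and S, did not pass the test and overlapped between the sites. The log2 difference of Ctsb was -0.14 (95% interval -0.32 to 0.04), that of Ctsd was 0.26 (0.03 to 0.48, adjusted p = 0.0806) and that of Ctss was 0.14 (-0.04 to 0.33). Ctsd passed without calvaria 3 (0.33, adjusted p = 0.0399), with dim probe sets filtered out (0.26, adjusted p = 0.0439) and with the replicate block (0.28, adjusted p = 0.0162). Ctss passed without calvaria 4 (0.21, adjusted p = 0.0461) and with quantile normalization (0.24, adjusted p = 0.0196). In all, of the 11 cysteine and aspartic proteases 7 were higher and 1 lower by adjusted p, with a median of 0.36.

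Both serine proteases were higher in the skull. Tpp1, tripeptidyl peptidase, which removes tripeptides from the amino end of proteins, read 652, 770, 858 and 713 in the skull and 410, 315, 271, 379 and 342 in the limb. No array of one site fell among those of the other, with an S:L ratio of 2.18 and a log2 difference of 1.13 (SE 0.13, adjusted p = 0.000207). Ctsa, cathepsin A, a carboxypeptidase that protects beta-galactosidase and sialidase in a complex, read 1550, 1790, 2034 and 1558 against 1169, 1321, 1254, 1285 and 1176. The sites were again separate, at a smaller log2 difference of 0.47 (SE 0.09, adjusted p = 0.00368).

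The acid phosphatases differed in size but not in direction. Acp5 encodes tartrate-resistant acid phosphatase, the histochemical marker of osteoclasts, and Acp2 the acid phosphatase found in lysosomes of most cells. Acp5 gave signals of 3932, 4694, 5619 and 4465 in the skull and of 1448, 1435, 1258, 1699 and 1270 in the limb. Each skull array was more than 2-fold above each limb array, with an S:L ratio of 3.29 and a log2 difference of 1.71 (SE 0.13, adjusted p = 2.87e-05). Acp2 read 127, 149, 157 and 139 against 85.5, 90.3, 84.8, 94.5 and 94.5. The sites did not overlap, the S:L ratio was 1.59 and the log2 difference was 0.67 (SE 0.08, adjusted p = 0.000207).

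**Figure D2:**
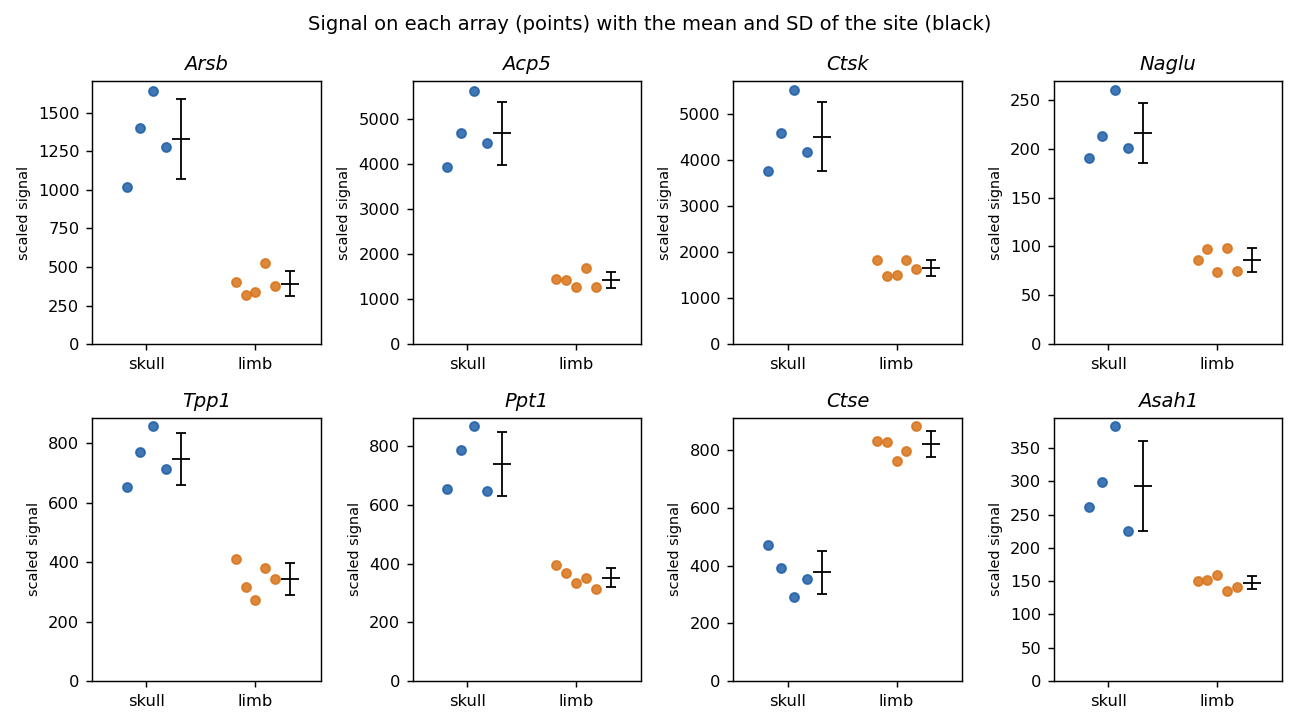
Scaled signal on each array (points; 4 skull, 5 limb) of the 7 members called at 2-fold and of Asah1, which lay just under it, with the mean and SD of each site in black; each axis starts at 0. Skull points lie above limb points in every panel except that of Ctse, where the limb mean was 821 and the skull mean 377.

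The glycosidases, which take sugars from the ends of glycans, glycolipids and glycosaminoglycans, were mostly higher in the skull, and Naglu by most. Naglu encodes alpha-N-acetylglucosaminidase of heparan sulfate degradation, and read 191, 213, 260 and 201 in the skull and 86.5, 97.2, 73.4, 98.8 and 74.7 in the limb. The sites were widely separate, with an S:L ratio of 2.51 and a log2 difference of 1.33 (SE 0.13, adjusted p = 8.08e-05). Glb1, lysosomal beta-galactosidase, read 732, 731, 879 and 672 against 441, 461, 450, 467 and 451. The limb arrays were close together (SD 10.2, n = 5) and all lay below the skull arrays, at a log2 difference of 0.72 (SE 0.07, adjusted p = 0.000114). Hexa, the alpha subunit of beta-hexosaminidase, read 570, 629, 629 and 552 against 443, 400, 388, 426 and 432, without overlap and at a log2 difference of 0.51 (SE 0.06, adjusted p = 0.000296).

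Among the other glycosidases, the smallest adjusted p belonged to enzymes of glycosaminoglycan breakdown. Gusb, beta-glucuronidase, had a log2 difference of 0.79 (SE 0.10, adjusted p = 0.000388) and Idua, alpha-L-iduronidase, one of 0.72 (SE 0.09, adjusted p = 0.000445), both without overlap. Manba (beta-mannosidase, 0.54), Aga (glycosylasparaginase, 0.53), Fuca1 (alpha-fucosidase, 0.52) and Gaa (acid alpha-glucosidase of glycogen, 0.45) were higher at adjusted p from 0.00202 to 0.0162. Gla, alpha-galactosidase A, was the one member past the adjusted p whose sites overlapped: calvaria 4 read 166, below ulna 2 (176) and ulna 4 (179), while the other skull arrays read 258 to 349. Its log2 difference was 0.89 (SE 0.23, adjusted p = 0.0175), it was 1.11 without calvaria 4, which passed 2-fold, and 0.75 without calvaria 3 (adjusted p = 0.0513). The second probe set of Gla gave 0.98. Man2b1, lysosomal alpha-mannosidase, at 0.00 (-0.17 to 0.16), and Neu1, sialidase, at 0.08 (-0.31 to 0.47), did not pass. Of the 12 genes in this group 10 were higher by adjusted p, and the median was 0.54.

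Among the sulfatases measured, Arsb had the largest difference of all 48 members. Arsb encodes N-acetylgalactosamine-4-sulfatase, which removes sulfate from chondroitin and dermatan sulfate, the glycosaminoglycans of skeletal matrix. It read 1016, 1398, 1639 and 1278 in the skull and 403, 321, 340, 527 and 376 in the limb. The highest limb array, ulna 4, was still well below the lowest skull array, the S:L ratio was 3.39 and the log2 difference was 1.76 (SE 0.17, adjusted p = 9.43e-05). Its second probe set had mean signals of 944 in the skull and 216 in the limb, a log2 difference of 2.12. Arsa, the sulfatase of cerebroside sulfate, read 147, 162, 157 and 172 against 115, 122, 76.3, 128 and 110. These did not overlap either, and the log2 difference was 0.55 (SE 0.14, adjusted p = 0.0172). Ids, iduronate sulfatase of heparan and dermatan sulfate, read 661, 625, 641 and 533 against 751, 645, 623, 615 and 637. The sites overlapped, and its log2 difference of -0.09 (95% interval -0.28 to 0.10) did not pass.

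All 5 lipid and nucleic acid hydrolases were higher in the skull by adjusted p. Ppt1, palmitoyl-protein thioesterase, which strips fatty acids from proteins, read 655, 788, 869 and 646 in the skull and 396, 369, 333, 352 and 312 in the limb. The sites did not overlap, the S:L ratio was 2.10 and the log2 difference was 1.06 (SE 0.11, adjusted p = 0.000106), which was just under 2-fold without calvaria 3 (0.98). Smpd1, acid sphingomyelinase, read 974, 1196, 1272 and 1075 against 577, 723, 620, 757 and 584, separate again, at a log2 difference of 0.79 (SE 0.11, adjusted p = 0.000628). Asah1, acid ceramidase, which cleaves the ceramide that Smpd1 makes, read 262, 299, 383 and 226 against 151, 151, 160, 135 and 142. The skull arrays were spread more widely (SD 67.6, n = 4) than the limb arrays (SD 9.37, n = 5), all above them, and the log2 difference was 0.96 (SE 0.14, adjusted p = 0.000729). It reached 2-fold without calvaria 1 (1.00) and without calvaria 4 (1.08), and its second probe set gave 0.76. Dnase2 (0.35, adjusted p = 0.00993), the acid endonuclease, and Lipa (0.25, adjusted p = 0.0243), the acid lipase of cholesteryl esters, had smaller differences. Lipa missed the adjusted p without any one of calvaria 1, calvaria 3, ulna 4 or ulna 5 (0.25, 0.24, 0.23 and 0.24).

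The small proteins that present or hand on lipids were higher by less. Gm2a, the activator that lifts the GM2 ganglioside for Hexa, read 595, 648, 690 and 585 in the skull and 376, 428, 486, 457 and 363 in the limb. The lowest skull array was above the highest limb array, at a log2 difference of 0.58 (SE 0.10, adjusted p = 0.00174). Npc2, which carries cholesterol out of the lysosome, read 1635, 1606, 2021 and 1452 against 1354, 1374, 1202, 1277 and 1145. It was also without overlap, at 0.39 (SE 0.10, adjusted p = 0.0161). Psap, the precursor of the saposins, had a log2 difference of 0.19 (95% interval -0.02 to 0.40) and did not pass in the main fit. It passed without ulna 3 (0.25, adjusted p = 0.0393) and, on all arrays, with quantile normalization (0.28, adjusted p = 0.020).

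The membrane proteins differed least, with a median log2 difference of 0.21 over 7 genes and none at 2-fold. Laptm4a, a multispanning protein of late endosomes and lysosomes, read 1995, 2237, 2419 and 1834 in the skull and 1415, 1448, 1307, 1305 and 1299 in the limb. It had no overlap and the largest difference of this group, 0.64 (SE 0.09, adjusted p = 0.000596). Cd63, a tetraspanin of late endosomes and secretory lysosomes, read 3007, 3779, 3719 and 2886 against 2463, 2316, 2369, 2200 and 2279, also separate, at 0.52 (SE 0.10, adjusted p = 0.00391). Scarb2, the receptor that carries glucocerebrosidase to the lysosome, had 0.39 (SE 0.09, adjusted p = 0.00685). Lamp1, a main glycoprotein of the limiting membrane, had 0.19 (SE 0.06, adjusted p = 0.0414), and its adjusted p rose above 0.05 without calvaria 1 (0.19), without calvaria 3 (0.14) and without any one of ulna 1 to 5 (0.16 to 0.20). Lamp2, its relative, had 0.04 (95% interval -0.15 to 0.24), Laptm5, a protein of blood-cell lysosomes, 0.12 (-0.06 to 0.30), and the calcium channel gene Mcoln1 0.21 (-0.07 to 0.49), and these 3 overlapped between the sites and did not pass.

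Both receptors for the mannose 6-phosphate tag were higher in the skull. Igf2r, the large receptor, read 619, 706, 810 and 705 in the skull and 395, 430, 457, 464 and 407 in the limb, with a log2 difference of 0.72 (SE 0.08, adjusted p = 0.000239). M6pr, the small receptor, read 707, 766, 821 and 661 against 564, 562, 515, 543 and 522, with 0.45 (SE 0.07, adjusted p = 0.00105). Neither gene overlapped between the sites, and the second probe set of Igf2r gave 0.92. Tfeb, which encodes a factor that switches on lysosomal genes, read 132, 124, 169 and 191 against 89.8, 109, 162, 128 and 144. These arrays overlapped, and the log2 difference of 0.29 (95% interval -0.14 to 0.73) did not pass.

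Tfeb and its relatives Mitf and Tfe3 bind short palindromic E-box sequences in promoters of lysosomal genes, so the bases upstream of the members' start sites were read from the RefSeq promoters of the GRCr8 assembly. An entry was found for 42 of the 51 members, with 43 start sites, since Acp5 has 2. The letters CACGTG, on either strand, were in the 250 upstream bases of 9 member promoters (20.9%) and of 5.59% of all 33469 promoters. The longer form TCACGTG, which contains CACGTG, was in 7 (16.3%) and in 2.79% of all. TCACATG, which is TCACGTG with its first G changed to A, was chosen after the sequences were seen. It was in 8 (18.6%) and in 3.36% of all. The form TCATGTG was not searched for. Of the members past 2-fold that had an entry (Acp5, Ctsk, Naglu, Tpp1 and Ctse) none held CACGTG in this window, while Acp5 and Tpp1, called higher, and Ctse, called lower, held TCACATG. The stretches around these 3 matches are shown first, followed by CACGTG stretches of members whose differences ran from 0.72 (Glb1, Igf2r) through 0.45 (Gaa) to 0.21 (Mcoln1) and 0.19 (Lamp1), with the matched letters in capitals, on the strand of the gene.
Acp5, chr8:28943976-28944022, minus strand: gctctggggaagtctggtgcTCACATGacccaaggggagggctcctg
Tpp1, chr1:169515951-169515997, minus strand: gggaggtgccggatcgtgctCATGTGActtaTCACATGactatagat
Ctse, chr13:45644047-45644093, plus strand: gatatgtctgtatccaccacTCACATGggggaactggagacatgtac
Glb1, chr8:122963597-122963643, plus strand: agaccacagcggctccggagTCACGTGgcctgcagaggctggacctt
Igf2r, chr1:50526732-50526779, plus strand: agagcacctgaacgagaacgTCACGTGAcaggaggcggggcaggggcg
Gaa, chr10:105028268-105028314, plus strand: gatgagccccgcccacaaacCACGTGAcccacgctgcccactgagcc
Mcoln1, chr12:6358215-6358257, plus strand: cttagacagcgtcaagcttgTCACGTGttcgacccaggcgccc
Lamp1, chr16:83075204-83075250, minus strand: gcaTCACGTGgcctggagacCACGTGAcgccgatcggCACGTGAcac
A match describes these letters only. CACGTG was found in members past the adjusted p alone and in members that did not pass, but in none past 2-fold. TCACATG was found in members of each of these classes, and each class also had members with neither.

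Within the skull, most members were highest on the same array. Calvaria 3 had the highest skull signal for 32 of the 48 members, calvaria 2 for 8, calvaria 4 for 6 and calvaria 1 for 2. The lowest skull signal was on calvaria 4 for 25 members and on calvaria 1 for 15. The median deviation of the members from their skull mean was 0.16 on calvaria 3 and -0.10 on calvaria 4, in log2 units. Both arrays had the highest 3' to 5' ratios, and the lysosomal signals lay at opposite ends of the skull range on them. Whether RNA quality had a part in the differences was not tested. Without calvaria 3 the median difference was 0.46, with 34 members higher by adjusted p and 5 at 2-fold, and without calvaria 4 it was 0.53, with 37 and 8. The limb arrays were closer together, with median deviations of -0.06 to 0.05.

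A further probe set, less bright, was there for 14 of the members, 15 probe sets in all. Of these 14 had the same sign as the one used, 6 passed an adjusted p taken over all probe sets, and 1, that of Arsb, also passed 2-fold. Those that did not pass included the further probe sets of Ctsc (0.28), Gaa (0.38) and Lgmn (0.14), whose first probe set had passed, and that of Man2b1 (-0.52). For Lamp1 the further probe sets gave 0.63 and -0.03, and neither passed.

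**Figure D3:**
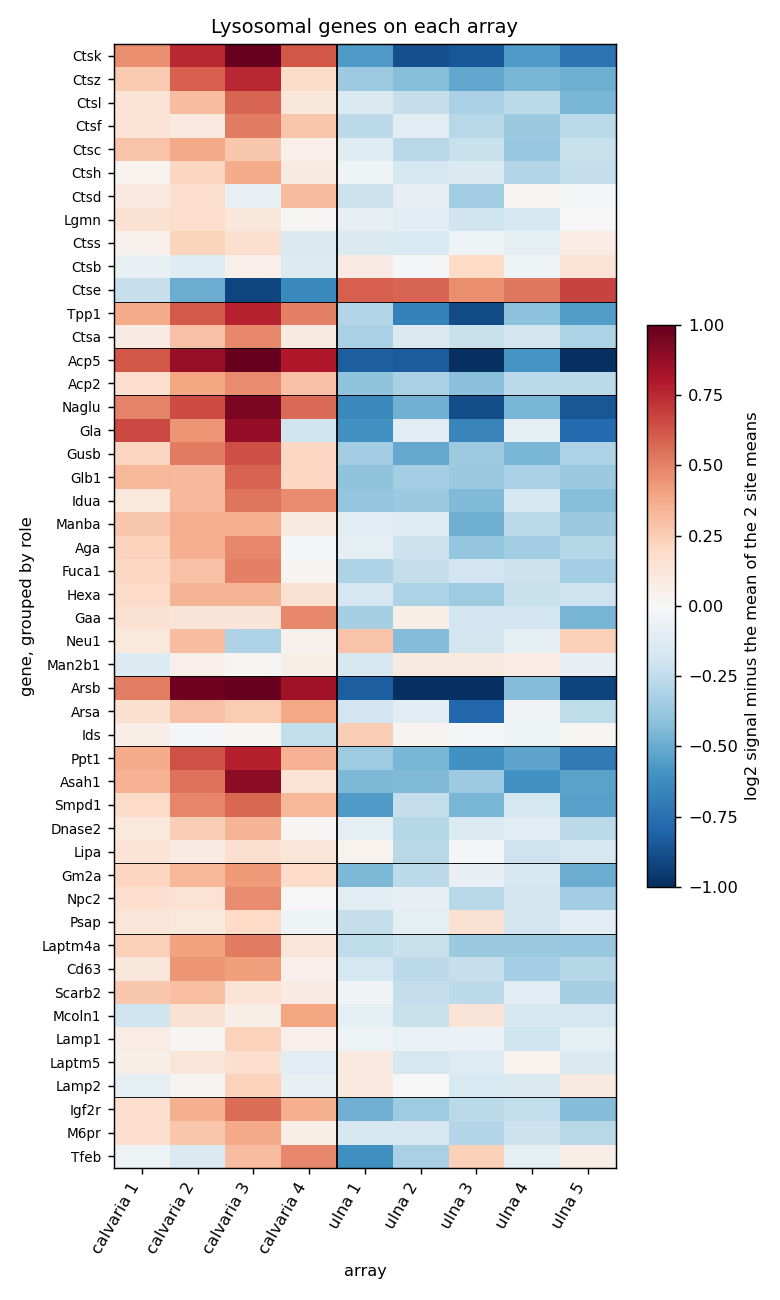
Log2 signal of the 48 members (rows, grouped by role) on each array (columns), minus the mean of the skull mean and the limb mean; the colour scale ends at -1 and 1, and larger values take the end colour. Most rows are red on the 4 skull arrays and blue on the 5 limb arrays, Ctse is the reverse, and calvaria 3 holds the highest skull signal for 32 members.

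The proton pump, which acidifies lysosomes and the resorption space under osteoclasts, showed a like shift. Of 21 measured subunits and accessory genes 17 were higher in the skull by adjusted p, none was lower, and the median log2 difference was 0.70. Over all genes 14.2% were higher and 18.1% lower by adjusted p. Atp6v1b2, a subunit of the catalytic part, was at 2-fold with 855 to 1090 in the skull and 402 to 477 in the limb, a log2 difference of 1.15 (SE 0.08, adjusted p = 2.79e-05). The accessory gene Atp6ap1 had 0.94, Tcirg1, the membrane subunit of osteoclasts, 0.91, and Atp6v0a2 0.74. The pump subunits that did not pass were Atp6v1c2, Atp6v0a1, Atp6v1g2 and Atp6v1b1.

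Other lysosomal genes, 52 measured of 63 listed, were more mixed. By adjusted p 19 were higher and 5 lower (14.2% and 18.1% over all genes), and the median was 0.20. Of the 4 with the smallest adjusted p, Cd68, a lysosomal glycoprotein of macrophages and osteoclasts, had 1.38 (986 to 1482 in the skull, 389 to 526 in the limb), Clcn7, the chloride exchanger that works beside the pump, 1.37, Cpq, a carboxypeptidase, 0.89, and Dpp7, a dipeptidyl peptidase, 0.80. Also at 2-fold were Hyal3 (1.13), a gene of the hyaluronidase family, and, in the other direction, the peptide transporter gene Abcb9 (-1.53, SE 0.42). Abcb9 was dim, with 3.23 to 13.7 in the skull and 22.8 to 28.9 in the limb, and 1 array was below the absent-control level. Of 5 measured protease inhibitors, Cstb, the cytosolic cystatin B, was called higher (1.37, SE 0.15, adjusted p = 0.000156), Cst3, the secreted cystatin C, had 0.51 (adjusted p = 0.00659) and Cst7, cystatin F, -0.77 (adjusted p = 0.000486). Cst8 (-1.06) and Cst6 (0.81) did not pass, and were at or below the absent-control level on 5 and 8 of the 9 arrays.

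Genes that regulate lysosome number or deliver cargo to lysosomes did not show the shift. Of 17 measured genes for the mTORC1 anchor on lysosomes and for transcription factors of lysosomal genes 1 was higher and 2 were lower by adjusted p. The shares over all genes were 14.2% higher and 18.1% lower, and the median of the list was 0.07. The one higher was Mitf, a relative of Tfeb needed for osteoclast formation, with 98.4 to 154 in the skull and 34.2 to 55.9 in the limb and a log2 difference of 1.43 (SE 0.17, adjusted p = 0.000293). Fnip2 (-0.63) and Usf1 (-0.33) were lower, and Lamtor2 (-0.23, adjusted p = 0.0699) was the gene with the next smallest p. Of 25 autophagy genes 3 were higher and 5 lower by adjusted p, near the shares over all genes (14.2% and 18.1%). None was at 2-fold, and the median was -0.17. The 4 with the smallest p, Optn (-0.44), Wipi2 (-0.65), Atg12 (-0.32) and Rb1cc1 (-0.41), were all lower in the skull. The difference between these lists and the lysosomal members was not tested.

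**Figure D4:**
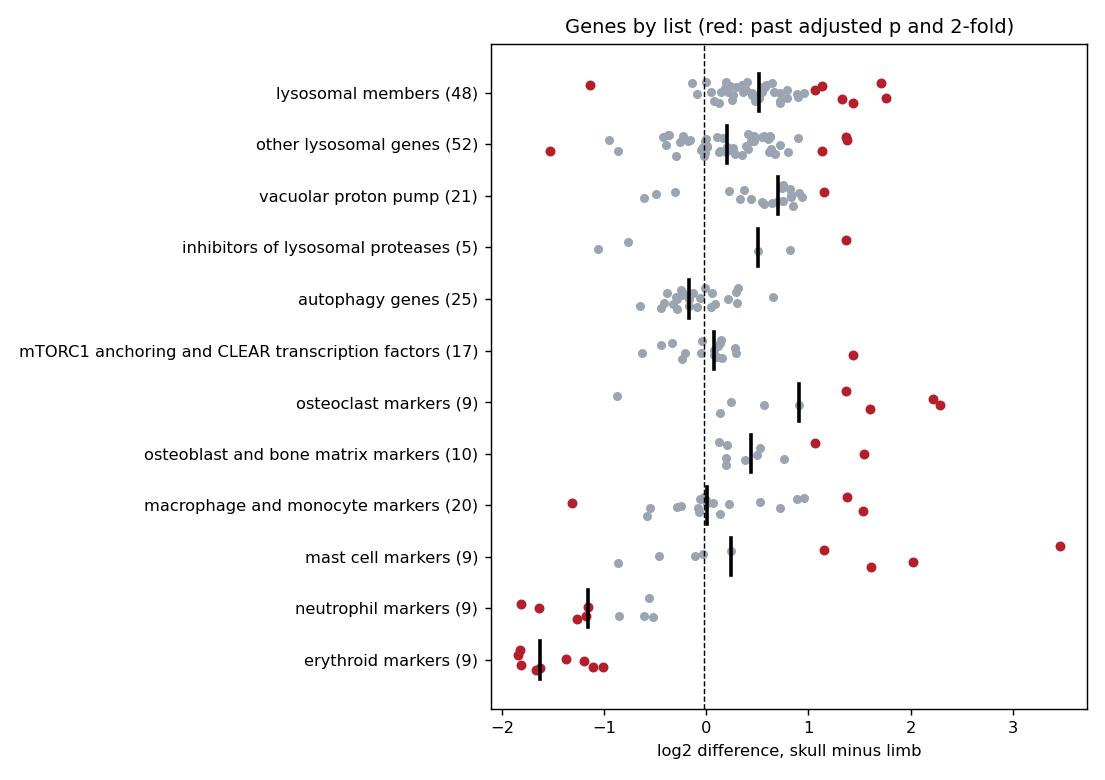
Log2 difference, skull minus limb, of each measured gene (points) in the lysosomal set and in the other lists, with the number of measured genes in brackets; black bars are list medians, the dashed line is the median of all genes (-0.02), and red points passed the adjusted p and 2-fold. The lysosomal members (median 0.51) and the proton pump (0.70) lie mostly to the right, autophagy genes (-0.17) around 0, and all neutrophil and erythroid markers to the left.

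Markers of several cell types moved with the site, and their part in the lysosomal difference was not tested. For the counts below, the shares over all genes were 14.2% higher and 18.1% lower by adjusted p. Of 9 measured osteoclast markers that are no members of the set, 6 were higher and 1, Car2, was lower by adjusted p. Calcr, the calcitonin receptor (2.22), Tnfrsf11a, the receptor for the osteoclast cytokine RANKL (2.29), the matrix protease Mmp9 (S:L ratio 3.06) and Clcn7 (1.37) passed 2-fold, and the median was 0.91. In the limb Calcr (SE 0.31) read 7.64 to 17.5 and Tnfrsf11a (SE 0.49) 3.72 to 18.6, each with 1 array below the absent-control level. The summed signal of the list was 5226 to 6420 in the skull and 5217 to 5623 in the limb, so the summed signals overlapped. Car2, carbonic anhydrase, which red cells also carry, averaged 1617 on skull arrays and 2946 on limb arrays. On mean log2 signal the list read 8.14 to 8.41 against 7.08 to 7.45. Of 20 macrophage and monocyte markers 6 were higher and 4 lower, with a median of 0.00 and summed signals of 12130 to 15000 against 11110 to 12460. Csf1r (1.53) and Cd68 (1.38) passed 2-fold upward and Itgam (-1.32) downward.

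Of 10 osteoblast and matrix markers 6 were higher and none was lower, with a median of 0.44 and summed signals of 38580 to 50330 against 28640 to 38580. Mast cell markers, whose granules are secretory lysosomes, were higher for 4 and lower for 1 of 9, with summed signals of 708 to 920 against 386 to 469. Blood markers ran the other way, as did most muscle markers. All 9 neutrophil markers were lower in the skull (median -1.16, summed signals 11720 to 14000 against 18010 to 23790), as were all 9 erythroid markers (median -1.63, 5382 to 7393 against 14020 to 17200), the direction that Ctse also had. Of 12 skeletal muscle markers 11 were lower (median -6.30) and 1, Myh1, was higher (0.59) by adjusted p. The summed signals were 654 to 770 in the skull and 8447 to 20550 in the limb. None of these lists had a marker at or below the absent-control level on all 9 arrays, and the muscle genes Tnnc2, Ryr1 and Myh4 were at or below it on all 4 skull arrays.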

How the data were processed

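The authors labelled RNA by the one-cycle method, hybridised it to Affymetrix Rat Genome GeneChips and deposited linear intensities (MAS5 signals), scaled to a common level on each array. Their own calls, after normalisation to chip and gene, used false discovery rate control and a 2-fold change. Samples were grouped by title.

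Of 31099 probe sets 57 were controls. Arrays were brought to a common median over the other 31042, floored at the 10th percentile (2.51) and taken to log2. Folds understate differences of genes near the floor, and signals of different probe sets are not on 1 scale, so summed list signals are set only against the same sum at the other site. The platform annotation gave 20826 probe sets 1 symbol, 436 several and 9780 none, and 20758 were matched to RefSeq gene names. Skull was compared with limb by limma 3.58.1 (R 4.3.3, lmFit, eBayes with trend) on all 31042. The fit was also run on simulated data. P was adjusted over 1 probe set for each of 14217 genes. A gene was called at adjusted p below 0.05 and a log2 difference of at least 1. Tests were two-sided. With 9 arrays, their number limits precision.

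Named genes were all members, with every array given for those called and for the 2 smallest adjusted p of the rest in each role group, and the 4 smallest of each other pathway list; further genes named were chosen after their values were seen. Members and lists were chosen with earlier results of these data known. Clcn7, Tcirg1, Ostm1 and Cd68 are each in more than 1 list. The methods of the study take skull and limb bones from groups of rats, so both sites may come from the same pools. The labels do not say which arrays match. Same-numbered skull and limb arrays did not deviate together (r from -0.03 to 0.05), which cannot show that the sites were unpaired. No block was used in the main fit, and one was run as an alternative. Alternatives covered scaling, floor, filter, variance model, probe set choice, the replicate block and leaving out each array.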

Additional observations from a re-analysis of the deposited data

Results flagged for a closer look

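In 3 of 96 groups of arrays (48 members at each site) a single array stood apart from the rest of its site by Dixon's criterion, and chance alone marks about 1 in 20 groups. Gaa read 221.8 on calvaria 4 against 173.8 to 176.7 on the other skull arrays. Ids read 751.1 on ulna 1 against 614.9 to 644.8 on the other limb arrays. Idua read 217.5 on ulna 4 against 181.0 to 189.9 on the other limb arrays.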

How the results depend on the processing

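Over 20 alternatives, the count of members higher in the skull at 2-fold was 6 to 7 except where an array was left out, when it ranged from 5 (without calvaria 3) to 8 (without calvaria 4). Ctse was the 1 member called lower in each. The count higher by adjusted p alone was 30 to 39 against 36, and the median difference 0.46 to 0.57. No member past both thresholds changed sign. Ppt1 lost its 2-fold call without calvaria 3 (0.98). Asah1 gained one with the MAS5 signals as deposited (1.01), with quantile normalization (1.01) and without calvaria 1 (1.00) or 4 (1.08), and Gla without calvaria 4 (1.11). The lowest count by adjusted p, 30, came with the replicate block, which leaves out ulna 5 and pairs arrays by number only: the median was 0.50, 6 members were called higher and 1 lower, and Ctsh, Dnase2, Gaa, Gla, Lamp1, Lipa and Npc2 lost the adjusted p while Ctsd gained it. Lamp1 lost it in 12 of the 20 alternatives. Laptm5, Ctss and Psap passed it with quantile normalization (0.19, 0.24 and 0.28). The MAS5 signals as deposited turned the split of calls over all genes from 511 higher and 636 lower to 597 and 572, and log2(signal + 16) gave 285 and 401. Bone pools, 4 against 5, and array signals leave cell number and RNA per cell unresolved, and proteins were not measured.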
